A study of Homo sapiens with 6 samples.

Results

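The genes described here are the SCAN-domain zinc finger genes, a family of transcription factors and related proteins. They were chosen by symbol, as every gene whose name begins with ZSCAN, ZKSCAN or SCAND followed by a digit, which gave 30 of the 20111 genes in the table. The family was put forward because one member, ZSCAN18, stood higher at 48 h than at 24 h after transfection, and the question was whether the rest of the family followed it. That rise of ZSCAN18 is therefore given as values with no test, and the other members, which were matched by name alone, are compared between the times and between the siRNAs.

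Messenger RNA had been sequenced from MDA-MB-231, an established human breast cancer line that the labels give as triple negative. The libraries were siNCOA3 at 48 h, siSHC1 at 48 h, siControl at 48 h, siNCOA3 at 24 h, siSHC1 at 24 h and siControl at 24 h, named for the siRNA transfected and the hours until collection, with 1 library each. siNCOA3 targets the nuclear receptor coactivator NCOA3, siSHC1 targets the adaptor protein SHC1, and siControl is the control siRNA, so that every group had been transfected and no untransfected cells were compared. The 2 libraries of an siRNA form a pair across time, and 3 such pairs carry the comparison of the times. The labels do not say that the libraries came from separate cultures, so the p-values cover the spread among these 6 libraries and nothing wider, and that spread may be technical.

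The SCAN domain is a leucine-rich stretch through which these proteins bind each other, as homodimers or as mixed pairs, and in vertebrates it descends from the capsid of a retroelement. Most members carry C2H2 zinc fingers that bind DNA. The ZKSCAN members add a KRAB domain, which in many zinc finger proteins binds the corepressor TRIM28 and, through it, enzymes that lay down repressive chromatin. SCAND1 has a SCAN domain and no zinc fingers. ZSCAN18 is known in gastrointestinal and other tumours as a gene whose CpG-rich promoter is often methylated.

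The promoters of ZSCAN18 are shown because this gene alone set the question. A promoter each of ZKSCAN1 and SCAND1 is shown because it holds a motif that ZSCAN18 lacks and that is frequent in the rest of the family. The sequences are RefSeq's for the build GRCh38.p14, from 250 bases before to 50 bases after a start, and are written in the direction of transcription. Capitals mark 3 motifs on either strand: GGGCGG (GC box), CACGTG (E box) and CCGGAAG (the core bound by ETS factors). Members were matched to this table by symbol, 26 of 30, with 43 promoters.
ZSCAN18, upstream start, chr19:58118355-58118654, minus strand: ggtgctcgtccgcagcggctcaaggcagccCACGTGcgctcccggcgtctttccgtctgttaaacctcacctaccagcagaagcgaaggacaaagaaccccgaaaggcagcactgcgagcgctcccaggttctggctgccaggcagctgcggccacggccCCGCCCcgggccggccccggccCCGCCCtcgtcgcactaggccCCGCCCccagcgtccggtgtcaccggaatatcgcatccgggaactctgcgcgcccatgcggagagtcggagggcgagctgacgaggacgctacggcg
ZSCAN18, downstream start, chr19:58098182-58098481, minus strand: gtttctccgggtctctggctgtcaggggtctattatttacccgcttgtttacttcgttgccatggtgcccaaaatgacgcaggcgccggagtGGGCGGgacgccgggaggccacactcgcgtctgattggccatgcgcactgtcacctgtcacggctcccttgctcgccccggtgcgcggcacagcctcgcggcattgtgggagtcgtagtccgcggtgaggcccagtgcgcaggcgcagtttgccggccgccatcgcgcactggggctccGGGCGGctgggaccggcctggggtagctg
ZKSCAN1, chr7:100015346-100015645, plus strand: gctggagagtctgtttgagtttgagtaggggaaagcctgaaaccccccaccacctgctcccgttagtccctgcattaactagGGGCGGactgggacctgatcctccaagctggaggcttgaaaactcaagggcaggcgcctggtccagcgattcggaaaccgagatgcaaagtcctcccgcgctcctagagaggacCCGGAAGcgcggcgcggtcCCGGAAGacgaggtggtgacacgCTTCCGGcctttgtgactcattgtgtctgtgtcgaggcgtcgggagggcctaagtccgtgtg
SCAND1, downstream start, chr20:35954453-35954752, minus strand: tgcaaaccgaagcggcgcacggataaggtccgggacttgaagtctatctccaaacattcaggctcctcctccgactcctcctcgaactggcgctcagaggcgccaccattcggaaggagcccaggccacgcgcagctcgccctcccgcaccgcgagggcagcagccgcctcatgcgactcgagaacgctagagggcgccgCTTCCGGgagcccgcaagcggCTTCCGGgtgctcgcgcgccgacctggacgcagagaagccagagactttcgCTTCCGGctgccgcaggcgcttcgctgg

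The upstream ZSCAN18 promoter held 36 CpG dinucleotides in its 300 bases, more than 87.3% of all 35116 promoters in the table, with 3 GC boxes and 1 E box. The downstream one held 31 CpG and 2 GC boxes. The median over all promoters was 14 CpG, and over those of the family 21. CCGGAAG or its reverse complement was in neither ZSCAN18 promoter, and occurred 3 times each in the ZKSCAN1 and SCAND1 promoters printed. The upstream start of SCAND1, not printed, held 0. Of the 31 promoters of family members that passed the filter on low values, 15, or 48.4%, held this motif, against 10.3% of all promoters and 36.7% of the 455 promoters of zinc finger genes named ZNF and a number. GC boxes were in 51.6% of the family's promoters, 45.0% of all and 62.4% of the ZNF promoters. The E box was in 9.68%, 7.26% and 5.71% in the same order. A TATA box (TATAAA) was in 0 of the 31 family promoters, against 11.5% of all promoters and 3.96% of the ZNF promoters. Some promoters of the same gene overlap, so a site can be counted more than once. Of the 19 genes behind the 31 promoters, 14 held CCGGAAG, 13 the GC box and 2 the E box. Shares by gene were not counted for all genes or ZNF genes. These counts therefore cannot be set against the shares by promoter, since a gene with several promoters can hold a motif in any of them. These matches describe the letters only, and binding was not measured.

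The labels were checked first. NCOA3 had 1.85 and 1.72 FPKM (fragments per kilobase of transcript, scaled to sequencing depth, a level corrected for gene length and depth) in the siNCOA3 libraries of 48 h and 24 h, against 11.4 and 10.3 FPKM in siControl. SHC1 had 15.5 and 14.7 FPKM in the siSHC1 libraries, against 119 and 103 FPKM in siControl. Of the fixed markers of the line, VIM, CD44, CAV1, EGFR and AXL averaged between 43.6 and 956 FPKM over the 6 libraries. PGR was listed at 0 and ESR1 averaged 0.025 FPKM, while ERBB2, fixed as low, averaged 31.0 FPKM and GATA3 5.05 FPKM. Markers of blood, endothelial and fibroblast cells were at or near 0, the highest being LUM with a mean of 0.41 FPKM. Total FPKM ran from 495518 to 553073 per library, and mitochondrially encoded transcripts held 17.3% to 18.7%. Relative depth, read from the spacing of low values, was highest in siControl at 48 h, at 1.45 times that of siControl at 24 h, which was the lowest; only 11.2% to 15.7% of the ratios sat on the step used, so this is approximate.

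ZSCAN18 had 48.8 FPKM in siNCOA3, 39.8 FPKM in siSHC1 and 62.9 FPKM in siControl cells at 48 h, against 21.4 FPKM in siNCOA3, 19.04 FPKM in siSHC1 and 19.8 FPKM in siControl cells at 24 h. All 3 libraries of 48 h were above all 3 of 24 h, and the 48 h libraries spread more widely. The mean was 50.5 ± 11.6 FPKM at 48 h and 20.1 ± 1.21 FPKM at 24 h (SD, n = 3 libraries with 3 different siRNAs). After scaling between libraries, the ratio of 48 h to 24 h was 2.31 in the siNCOA3 pair, 2.12 in the siSHC1 pair and 2.95 in the siControl pair. On the scale of log2(scaled FPKM + 1), used for all changes below, the change was 1.17, 1.05 and 1.52 in these pairs, with a fitted mean of 1.25 ± 0.10 (SE). Of 11690 genes, 7 had a fitted change of larger size between the times.

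**Figure D1:**
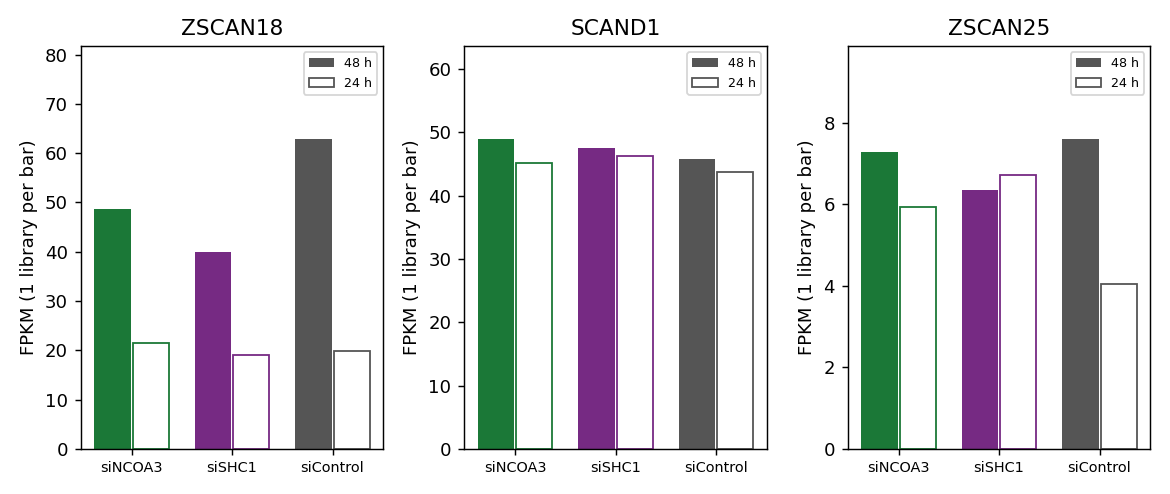
FPKM of ZSCAN18, SCAND1 and ZSCAN25 (vertical axes, each from 0) for each siRNA, with 1 library per bar, filled at 48 h and open at 24 h. ZSCAN18 stands between 39.8 and 62.9 FPKM at 48 h and between 19.04 and 21.4 FPKM at 24 h, while the bars of SCAND1 differ little and ZSCAN25 differs mainly in the siControl pair.

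The rise changed the place of ZSCAN18 within the family. Its share of the summed FPKM of all 30 members was 25.1% in siNCOA3, 22.2% in siSHC1 and 29.7% in siControl cells at 48 h, against 13.39%, 12.2% and 13.7% in the same order at 24 h. SCAND1, whose protein can pair with other SCAN proteins, was the highest member in the 24 h libraries. At 48 h ZSCAN18 stood above SCAND1 in siControl cells, with 62.9 FPKM against 45.8 FPKM, close to it in siNCOA3 cells, with 48.8 FPKM against 48.9 FPKM, and below it in siSHC1 cells, with 39.8 FPKM against 47.6 FPKM. The summed FPKM of the other 29 members was 145 in siNCOA3, 140 in siSHC1 and 149 in siControl cells at 48 h, against 138, 137 and 125 at 24 h. These sums are not scaled between libraries. The scale factor of siControl was 0.947 at 24 h, the lowest of the libraries, and 1.018 at 48 h, so part of its difference is library scale.

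Mean levels within the family ran from 46.2 FPKM for SCAND1 to 0.0056 FPKM for ZSCAN1, and 21 members, ZSCAN18 included, passed the filter of at least 1 FPKM in at least 2 libraries after scaling. SCAND1 had 48.9, 47.6 and 45.8 FPKM in siNCOA3, siSHC1 and siControl cells at 48 h, against 45.1, 46.3 and 43.8 FPKM at 24 h. ZKSCAN8, with a KRAB domain, had 12.6, 11.01 and 14.0 FPKM at 48 h, against 12.3, 12.0 and 10.6 FPKM at 24 h. ZKSCAN1, known as the host of an abundant circular RNA in liver, had 12.9, 9.83 and 14.4 FPKM at 48 h, against 11.6, 11.1 and 9.06 FPKM at 24 h. ZSCAN9 had 10.3, 11.04 and 11.05 FPKM at 48 h, against 11.5, 10.2 and 9.60 FPKM at 24 h. In each of these 4 genes, unlike ZSCAN18, the levels at the 2 times overlapped after scaling. The order of means below ZSCAN18 was ZKSCAN8 (12.1 FPKM), ZKSCAN1 (11.5 FPKM) and ZSCAN9 (10.6 FPKM), and these neighbours overlapped across libraries.

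A middle group held 6 members with means between 4.44 and 6.44 FPKM over the 6 libraries. ZSCAN30 averaged 6.44 FPKM, ZSCAN29 6.34 FPKM, ZSCAN25 6.32 FPKM and ZKSCAN3, a repressor of autophagy genes, 6.10 FPKM. ZKSCAN5 averaged 5.31 FPKM and ZSCAN21, whose mouse counterpart acts in cerebellar granule cells, 4.44 FPKM. Means of ZSCAN16 (3.59 FPKM), ZSCAN32 (3.49 FPKM), ZSCAN31 (3.34 FPKM) and ZKSCAN4 (2.997 FPKM) followed. ZSCAN12 averaged 2.12 FPKM, ZSCAN2 1.73 FPKM, ZSCAN22 1.46 FPKM, ZKSCAN2 1.31 FPKM, ZSCAN20 1.08 FPKM and ZKSCAN7 0.958 FPKM.

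The remaining 9 members did not pass the filter. ZSCAN5A reached 1.16 FPKM in 1 library (siNCOA3 at 48 h), and its near-identical relatives ZSCAN5B, ZSCAN5C and ZSCAN5D, among which reads can be hard to assign, stayed at or below 0.079 FPKM. SCAND3, which joins a SCAN domain to a transposase-like part, reached 0.527 FPKM and ZSCAN23 0.268 FPKM. ZSCAN4, which acts in the earliest embryonic divisions and in telomere maintenance of mouse stem cells, reached 0.048 FPKM. ZSCAN10, a factor of mouse embryonic stem cells, and ZSCAN1 were each listed at 0 in 5 of 6 libraries.

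**Figure D2:**
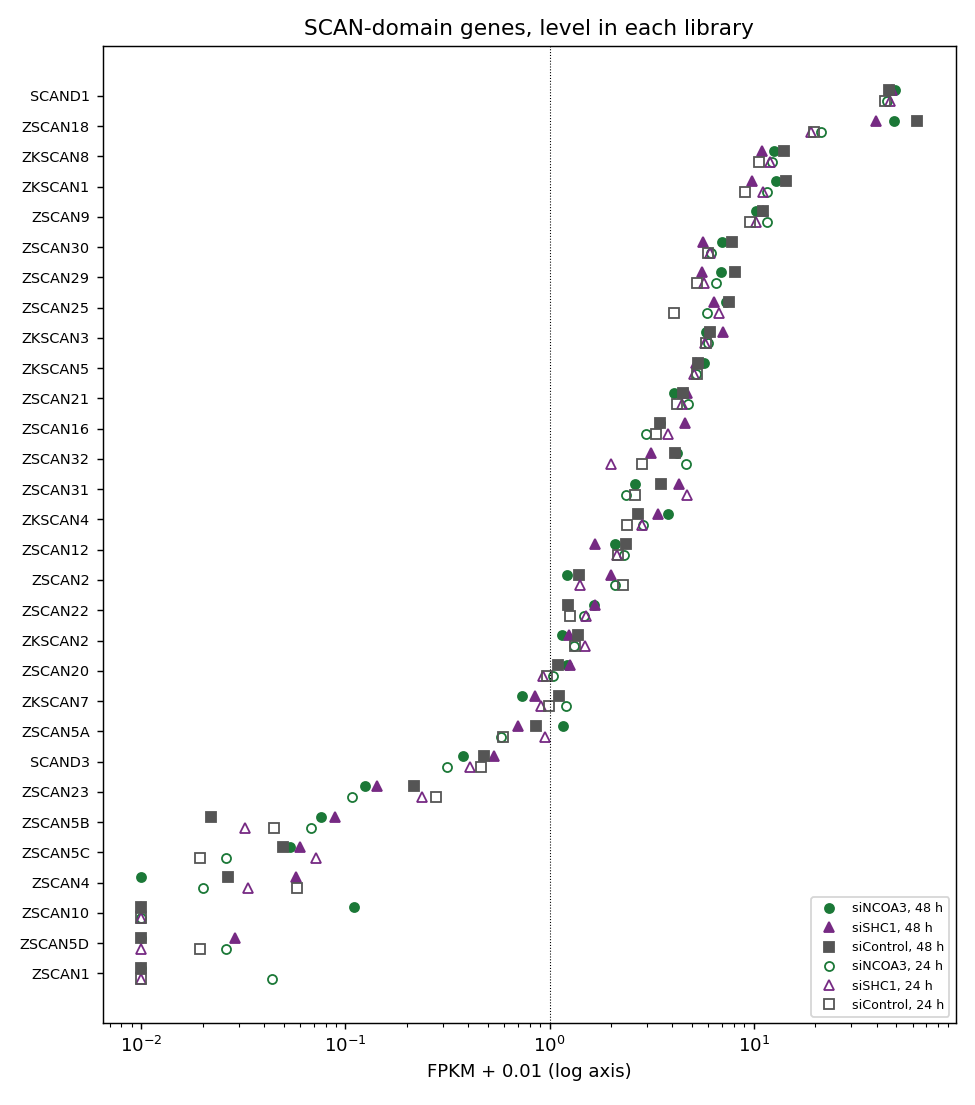
FPKM plus 0.01 (log axis) of the 30 members, ordered by mean, with filled symbols for 48 h and open symbols for 24 h and a shape and colour for each siRNA. The dotted line marks 1 FPKM. The filled and open symbols of ZSCAN18 are separated, and 9 members lie at the bottom, from ZSCAN5A down.

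The comparison of 48 h with 24 h asked whether the other members moved with ZSCAN18. Of the 20 other members tested, 0 were called (limma, Benjamini-Hochberg adjusted over 11690 genes), where 0.0171% of all genes tested were called higher and 0.00855% lower, 0.0257% in all. With so few calls among all genes, the count is no result about the members. At an unadjusted p under 0.05 limma gave 0 of the 20, against 14.2% of all genes. The fitted changes of the 20 ran from -0.22 (ZSCAN2) to 0.30 (ZSCAN25), with a median of 0.077. The median was 0.0072 over all genes tested and 0.0039 over the 413 tested zinc finger genes named ZNF and a number. The 95% intervals of the fit reached up to 0.64 (ZSCAN25) and down to -0.66 (ZSCAN2). For each of the 20 a change as large as the 1.25 of ZSCAN18 lay outside its interval. These intervals borrow part of their spread from other genes, and the pseudocount of 1 understates changes of low members.

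The signs were mixed across the pairs. The fitted change was above 0 in 15 of the 20, or 75.0%, against 52.2% of all genes tested. Of these, ZKSCAN3, ZKSCAN5, ZKSCAN8 and ZSCAN9 fell below 0 in at least 1 alternative fit. Within the siNCOA3, siSHC1 and siControl pairs, 12, 11 and 12 of the 20 were above 0, against 6101, 6129 and 5937 of 11690 genes. Counted without a test, 2 of 20 members were higher at 48 h in all 3 siRNA pairs, ZKSCAN4 and ZSCAN20, against 20.8% of all genes. Only ZKSCAN2 of the 20 was lower in all 3 pairs, against 17.4% of all genes. The levels at the 2 times did not overlap in 1 of 20 members, ZSCAN20, which was higher at 48 h, and 5.36% of all genes tested had all 48 h libraries above all 24 h libraries. No member had all 48 h libraries below all 24 h libraries (0 of 20, against 5.22% of all genes). The shares that were higher or lower in every pair, or that did not overlap, are below or near those of all genes. The share with a fitted change above 0 is higher, while the shares above 0 within single pairs lie nearer those of all genes.

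ZKSCAN4, a KRAB-bearing member, had 3.81 FPKM in siNCOA3, 3.38 FPKM in siSHC1 and 2.70 FPKM in siControl cells at 48 h, against 2.86, 2.83 and 2.40 FPKM at 24 h. Each pair was higher at 48 h but the groups overlapped, since the siControl library of 48 h lay below 2 of the 24 h libraries. The fitted change was 0.20 ± 0.11 (SE, 95% interval -0.06 to 0.45, limma adjusted p = 0.438). ZSCAN20 had 1.21, 1.25 and 1.09 FPKM at 48 h, against 1.03, 0.914 and 0.965 FPKM at 24 h. Its change was 0.14 ± 0.12 (SE, 95% interval -0.15 to 0.42, limma adjusted p = 0.629), small and near the filter. ZKSCAN2 had 1.14, 1.24 and 1.36 FPKM at 48 h, against 1.301, 1.48 and 1.32 FPKM at 24 h. Its change was -0.09 ± 0.11 (SE, limma adjusted p = 0.754), and its raw FPKM in siControl cells were nearly equal at the 2 times.

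The largest fitted changes among the others, picked after their values were seen, were each uneven across the pairs. ZSCAN25 had 7.27 FPKM in siNCOA3, 6.35 FPKM in siSHC1 and 7.60 FPKM in siControl cells at 48 h, against 5.92, 6.73 and 4.04 FPKM at 24 h. Its change was 0.28 in the siNCOA3 pair, -0.06 in the siSHC1 pair and 0.69 in the siControl pair (fit 0.30 ± 0.14, SE, limma adjusted p = 0.385), so the size rested mostly on the siControl pair, and the fitted change was 0.11 without either library of that pair. ZSCAN32 had 4.19, 3.13 and 4.12 FPKM at 48 h, against 4.64, 1.99 and 2.84 FPKM at 24 h. It was higher at 48 h in the siSHC1 and siControl pairs and lower in the siNCOA3 pair (fit 0.24 ± 0.13, SE, limma adjusted p = 0.451). Leaving out either siSHC1 library gave 0.12, and either siNCOA3 library 0.41. ZSCAN2 had 1.21, 1.996 and 1.39 FPKM at 48 h, against 2.09, 1.40 and 2.29 FPKM at 24 h, lower at 48 h in the siNCOA3 and siControl pairs and higher in the siSHC1 pair (fit -0.22 ± 0.18, SE, limma adjusted p = 0.610). Leaving out either siSHC1 library gave -0.50, either siControl library -0.07, and either siNCOA3 library -0.10.

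**Figure D3:**
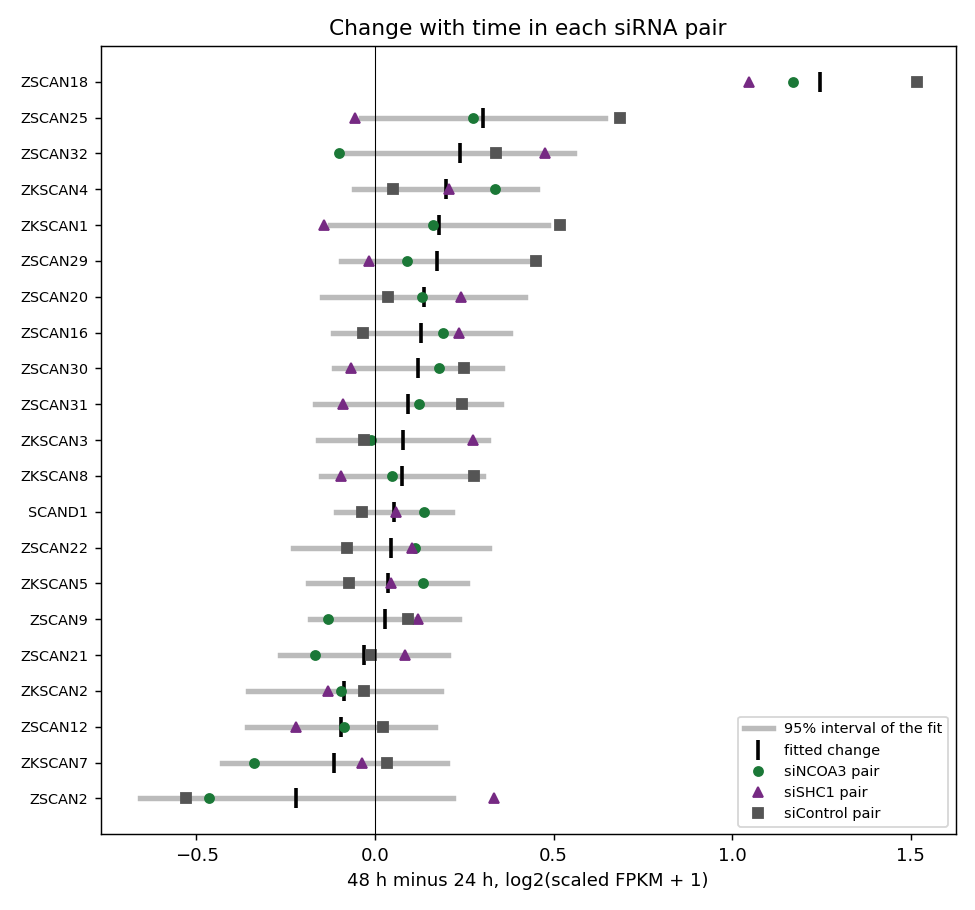
Change between the times (48 h minus 24 h, log2 of scaled FPKM plus 1) of the 21 members tested, with a symbol for each siRNA pair, a bar for the fitted change and a grey line for its 95% interval (none is drawn for ZSCAN18, whose rise put the family forward). The 3 symbols of ZSCAN18 lie between 1.05 and 1.52, and the fitted changes of the other 20 lie between -0.22 and 0.30.

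By kind, the 7 KRAB-bearing members had a median time change of 0.076, from -0.11 for ZKSCAN7 to 0.20 for ZKSCAN4, and the 12 other ZSCAN members a median of 0.11. SCAND1 had a change of 0.05 ± 0.07 (SE, 95% interval -0.11 to 0.22, limma adjusted p = 0.747), the narrowest interval in the family. The 7 members tested on chromosome 6p22, where SCAN genes form a cluster, had a median of 0.078. Among them ZKSCAN4 stood at 0.20, ZSCAN16 at 0.13, ZSCAN31 at 0.09, ZKSCAN3 and ZKSCAN8 at 0.08, ZSCAN9 at 0.03 and ZSCAN12 at -0.10. Outside that cluster, ZKSCAN1 stood at 0.18, ZSCAN29 at 0.17, ZSCAN30 at 0.12, ZSCAN22 at 0.05, ZKSCAN5 at 0.04 and ZSCAN21 at -0.03, and none of these passed.

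The siControl and siSHC1 pairs were set side by side after the values were seen. Of the 20 members other than ZSCAN18, 7 had their largest change by size in the siControl pair, against 39.9% of all genes tested. The signed siControl change was above the siSHC1 change in 9 of 20, against 46.9% of all genes. Both shares are near those of all genes. The change was above 0 in the siControl pair and below 0 in the siSHC1 pair in 8 of 20 members, against 16.4% of all genes. The same signs were in 7 of 19 tested SCAN genes with other names and 99 of the 413 ZNF genes. They were in 8 of 30 tested genes of 19q13.43 and 2 of 19 genes of the KRAB corepressor machinery. The pattern is thus not particular to the members chosen by symbol. As shares, the members and the SCAN genes with other names stood highest. Some of these lists share genes, and the differences between the shares were not tested. ZKSCAN1 had changes of 0.52 and -0.14 in these pairs, ZSCAN29 0.45 and -0.02, ZKSCAN8 0.28 and -0.095, ZSCAN30 0.25 and -0.07, and ZSCAN31 0.24 and -0.09, besides ZSCAN25, ZSCAN12 and ZKSCAN7. ZSCAN18 too had its largest change in the siControl pair, and its smallest in the siSHC1 pair. By approximate depth, the siControl pair joins the deepest library to a shallow library that is close to both siSHC1 libraries. The part of depth in these signs was not tested. A difference in time change between siRNAs cannot be tested with 1 library per siRNA and time.

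Genes beside ZSCAN18 on chromosome 19 had time changes well below that of ZSCAN18. In RefSeq's order of protein-coding genes its neighbours are ZNF135, which was listed at 0 in all 6 libraries, and ZNF329. ZNF329, itself a zinc finger gene, had 3.28 FPKM in siNCOA3, 2.67 FPKM in siSHC1 and 4.14 FPKM in siControl cells at 48 h, against 2.88, 3.42 and 3.28 FPKM at 24 h. The times overlapped, with a fitted change of 0.03 ± 0.12 (SE, limma adjusted p = 0.939). Of 35 listed genes of 19q13.43, 30 passed the filter and 0 were called between the times (limma), against 0.0257% of all genes, with 2 at an unadjusted p under 0.05, against 14.2% of all genes, and a median of 0.036. The count of calls is what the share over all genes would give. Their changes ran from -0.34 for SLC27A5, a bile acid and fatty acyl CoA ligase, to 0.29 for CHMP2A, a subunit of the ESCRT-III membrane-cutting complex. The next in size were ZNF776 at 0.23 and ZNF584 at -0.20.

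**Figure D4:**
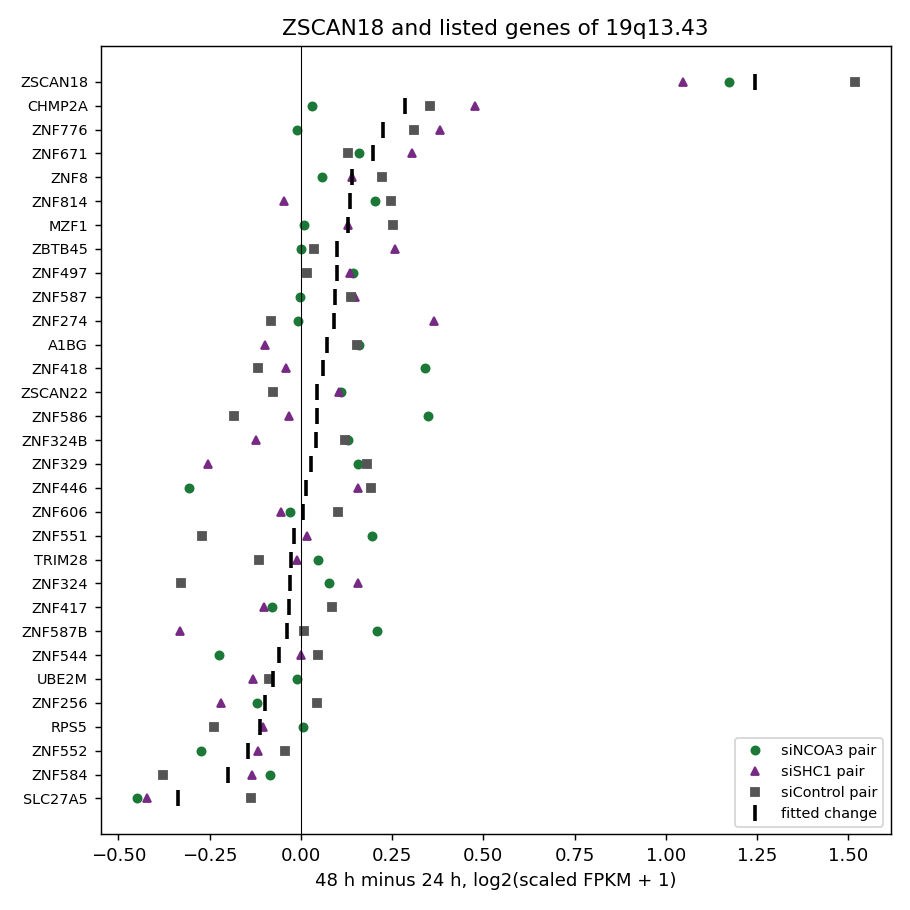
Change between the times (48 h minus 24 h, log2 of scaled FPKM plus 1) of ZSCAN18 and of the 30 listed genes of 19q13.43 that passed the filter, with a symbol for each siRNA pair and a bar for the fitted change. The fitted changes of the 30 lie between -0.34 and 0.29, and ZSCAN18 lies at 1.25.

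SCAN-domain genes with other names and the partners of the KRAB domain had small fitted time changes. Of 23 SCAN genes under ZNF and other symbols found in the table, 19 were tested and 0 were called (limma, 0 at an unadjusted p under 0.05), with a median of 0.023, where 0.0257% of all genes were called and 14.2% were at an unadjusted p under 0.05. ZNF24 stood at 0.19, MZF1, a myeloid zinc finger factor, at 0.13, PGBD1 at -0.12 and ZNF18 at -0.12, and PEG3, an imprinted gene, was listed at 0. Of the 19 genes of the KRAB corepressor machinery, 0 were called (limma, 1 at an unadjusted p under 0.05), with a median of -0.012. TRIM28, which KRAB domains bind, averaged 225 FPKM at 48 h and 226 FPKM at 24 h, with a change of -0.03 ± 0.06 (SE, limma adjusted p = 0.857). CBX3, a heterochromatin protein, stood at -0.20, FAM208A (TASOR, of the HUSH silencing complex) at -0.15, MPHOSPH8, its chromodomain partner, at 0.13 and PPHLN1 at 0.12. PPHLN1 was uneven, with 0.60, 0.08 and -0.33 in the siNCOA3, siSHC1 and siControl pairs.

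The comparisons of siNCOA3 and siSHC1 with siControl asked whether the targets bear on the family. These contrasts share the siControl libraries. After siNCOA3, 0 of 21 members were called (limma), against 0.111% of all genes tested, and 0 were at an unadjusted p under 0.05, against 10.5%. The 20 members other than ZSCAN18 had a median change of -0.011, from -0.24 for ZSCAN31 to 0.25 for ZSCAN32, beside -0.00064 for all genes, and the fitted change was above 0 in 8 of them, against 49.8% of all genes. Of the 20, 3 were above siControl at both times, against 27.9% of all genes, and 6 below at both, against 28.4%. After siSHC1, 0 of 21 members were called (limma), against 6.42% of all genes tested (3.11% higher and 3.32% lower), and 2 of 21 were at an unadjusted p under 0.05, against 26.3%. The 20 had a median of -0.0014, beside 0.0035 for all genes, and the fitted change was above 0 in 10 of them, against 50.7% of all genes. Of the 20, 4 were above siControl at both times, against 35.6% of all genes, and 5 below at both, against 33.9%.

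These 2 members were ZSCAN31 and ZSCAN18, with opposite signs. ZSCAN31, of the 6p22 cluster, had 4.28 FPKM at 48 h and 4.68 FPKM at 24 h in siSHC1 cells, against 3.49 and 2.60 FPKM in siControl cells, and 2.62 and 2.36 FPKM in siNCOA3 cells. Both siSHC1 libraries were above both siControl libraries, with a change of 0.42 ± 0.13 (SE, 95% interval 0.10 to 0.74, limma adjusted p = 0.111), which did not pass. ZSCAN18 differed from siControl by -0.62 at 48 h and by -0.15 at 24 h in siSHC1 cells, and by -0.35 at 48 h and -0.003 at 24 h in siNCOA3 cells. The fitted difference for siSHC1 was -0.38 ± 0.12 (SE, 95% interval -0.68 to -0.09, limma adjusted p = 0.111) and for siNCOA3 -0.18 ± 0.12 (SE, 95% interval -0.47 to 0.12, limma adjusted p = 0.672), and neither passed. Without the siControl library of 48 h these were -0.18 and 0.03 (limma adjusted p = 0.485 and 0.999), and without the siSHC1 library of 48 h the difference for siSHC1 was -0.24.

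ZSCAN32 had 3.13 FPKM at 48 h and 1.99 FPKM at 24 h in siSHC1 cells, against 4.12 and 2.84 FPKM in siControl cells, a change of -0.36 ± 0.16 (SE, 95% interval -0.75 to 0.03, limma adjusted p = 0.219). ZKSCAN4 stood at 0.24 ± 0.13 after siNCOA3 (SE, 95% interval -0.07 to 0.56, limma adjusted p = 0.586). Over all 21 members the intervals stayed between -0.68 and 0.64 for siNCOA3 and between -0.75 and 0.74 for siSHC1.

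**Figure D5:**
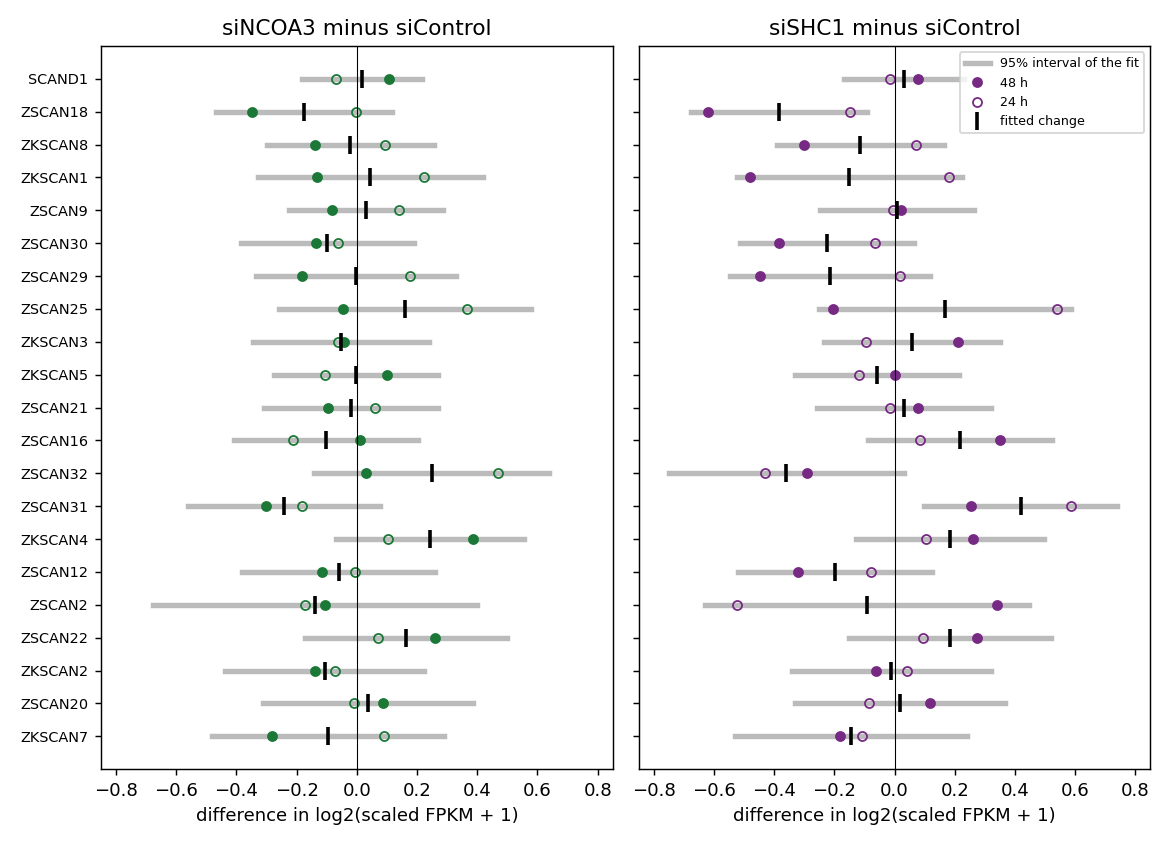
Difference from siControl (log2 of scaled FPKM plus 1) of the 21 members tested, for siNCOA3 on the left and siSHC1 on the right, with a filled symbol for 48 h, an open one for 24 h, a bar for the fitted change and a grey line for its 95% interval. In siSHC1 cells the intervals of ZSCAN31 and ZSCAN18 leave 0 out, and neither gene passed the adjusted test.

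Among the related genes, 5 were called after siSHC1. ZNF496, a SCAN and KRAB zinc finger gene, had 6.23 and 5.29 FPKM at 48 h and 24 h in siSHC1 cells, against 9.95 and 9.75 FPKM in siControl cells. It fell by 0.72 ± 0.11 (SE, limma adjusted p = 0.0224), the 1 call among the 19 SCAN genes with other names, where 3.32% of all genes were called lower. Of the 19 corepressor genes 3 fell and 0 rose, where 3.32% of all genes were called lower. SUMO3, a SUMO modifier, had 63.3 and 63.9 FPKM in siSHC1 cells, against 98.5 and 88.5 FPKM in siControl cells, and fell by 0.58 ± 0.07 (SE, limma adjusted p = 0.0114). FAM208A fell by 0.47 ± 0.09 (SE, limma adjusted p = 0.0405) and CHD4, the NuRD remodeller, fell by 0.45 ± 0.08 (SE, limma adjusted p = 0.0342). On 19q13.43 UBE2M, the NEDD8-conjugating enzyme, was the 1 of 30 genes called, with a rise of 0.42 ± 0.07 (SE, limma adjusted p = 0.0280), where 3.11% of all genes were called higher. A single call in lists of these sizes is near the share over all genes. Each of these 5 calls was lost when either siControl library was left out and with no filter on low values. Of 14 alternatives, 3 ended the call of SUMO3, 4 that of ZNF496 (also without siSHC1 at 24 h), 6 that of UBE2M and 7 each those of CHD4 and FAM208A (these 3 also without either siSHC1 library). The sizes moved less, with CHD4 between -0.51 and -0.39 when 1 library was left out. After siNCOA3 none of these lists had a call (limma).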

How the data were processed

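The values the authors deposited are FPKM for 20111 gene symbols in 6 libraries, although the table is named for read counts: they are not whole numbers, and the smallest above 0 is 1.45e-316. The tools named, per the submitters' processing notes, included STAR and Cufflinks, with DESeq2 also listed, and the build was hg19; their roles, versions, annotation and strand setting are not stated by any source at hand. Per the labels' protocols, RNA was taken up in Trizol and made into stranded mRNA libraries.

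FPKM were scaled by the median of ratios over 11042 genes with at least 1 FPKM in every library. Genes with at least 1 scaled FPKM in at least 2 libraries (11690) were fitted on log2(scaled FPKM + 1), the pseudocount being 1, which understates changes of low genes. The fit was limma 3.58.1 in R 4.3.3 (trend, robust) with additive terms for siRNA and time, leaving 2 residual degrees of freedom, and p-values were Benjamini-Hochberg adjusted over all genes (threshold 0.05). Any change over time that differs between siRNAs adds to the error. No paired block beyond the siRNA term exists, as each siRNA has 1 library per time. No fragment counts were recovered: 11.2% to 15.7% of ratios between values under 0.3 FPKM fell on the most frequent step (tolerance 0.02), so that no counting interval is given and a 0 is only a listed 0.

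The members and lists were chosen with earlier results of these data known. Members named with all 6 values are ZSCAN18, the 5 highest by mean, and those moving one way in all 3 pairs (up to 5 in each direction), and others so named were picked after their values were seen. From the lists, called genes and the 4 largest time changes are named. The fit was tested on simulated data. Tables were made in Python 3.11.15 with pandas 2.3.3, and plots with matplotlib 3.10.9. Alternatives were other scalings, filters and pseudocounts, no robust moderation, fewer terms, and leaving out each library.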

Additional observations from a re-analysis of the deposited data

Results flagged for a closer look

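ZSCAN2 differed from siControl in opposite directions at the 2 times after siSHC1, by 0.34 at 48 h and by -0.52 at 24 h as differences of log2(scaled FPKM + 1). It was the 1 member tested with opposite differences of at least 0.3 each, and the share of all genes with such differences was not counted. The SCAN gene ZNF500, outside the symbol rule, differed by -1.21 at 48 h and by 0.83 at 24 h. With 1 library per siRNA and time, the reversal was tested for neither gene.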

How the results depend on the processing

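Of the members still tested, 0 of those other than ZSCAN18 were called between the times, and 0 were called after siNCOA3 or siSHC1, under each of the 14 alternatives run per comparison. The lowest adjusted p of a member lay between 0.179 and 0.924 for time, 0.414 and 0.803 for siNCOA3, and 0.0802 and 0.344 for siSHC1 (limma). The time change of ZSCAN18 ran from 1.11 to 1.34 and the median of the other members from 0.045 to 0.095 over the same alternatives. Leaving out 1 library gave ZSCAN18 from 1.11 to 1.34 and the median from 0.045 to 0.092. Among all genes the counts called moved more (limma). Without a filter on low values they were 0 for time, 0 for siNCOA3 and 14 for siSHC1, where the adjusted p of SHC1 and NCOA3 also missed the threshold, and the cause was not tested. Keeping genes that averaged 5 FPKM or more gave 1 for time, without the siRNA term 1, without scaling 7 for siNCOA3, and without the time term 226 for siSHC1. Without 1 library the counts ran from 0 to 64 for time, 2 to 38 for siNCOA3 and 62 to 867 for siSHC1. With equal library totals the siSHC1 calls were 209 higher and 496 lower, against 363 and 388 with the median of ratios. Of 23 results on single named genes, 20 kept their sign under the alternatives run. The exceptions were small changes when 1 library was left out: ZKSCAN8 between the times ran from -0.026 to 0.16, ZSCAN9 from -0.021 to 0.11, and ZSCAN32 after siNCOA3 from -0.0074 to 0.50. ZSCAN18 after siNCOA3, not among these 23, turned to 0.03 without siControl at 48 h, against -0.18 with all libraries. The 23 were picked and include both siRNA targets and the genes called after siSHC1, so they do not stand for all members. Between the times, the changes of ZKSCAN3 (-0.022 to 0.13), ZKSCAN5 (-0.014 to 0.089) and ZSCAN21 (-0.090 to 0.038) also crossed 0 over the alternatives. After siNCOA3, and likewise after siSHC1, the ranges of most members crossed 0. The siRNA term already pairs the 2 libraries of an siRNA, and the labels number no replicates for a further block. Fragment counts behind the values are unknown, and the fit has 2 residual degrees of freedom.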
